A study of Mus musculus with 7 samples.

Results

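The Bcl2 family genes were followed in CD11c-positive spleen cells of mice after an allogeneic hematopoietic stem cell transplant, a graft of blood-forming cells from a genetically different donor. The 10 genes named for this family were Bcl2, Bcl2l1 and Mcl1, which favour survival, and Bax, Bak1, Bcl2l11, Bbc3, Pmaip1, Bid and Bad, which favour death. A member was measured by every probe set annotated to it alone, a probe set being a group of short array probes against 1 transcript. In their names, the suffix _a_at marks probes shared by transcripts of 1 gene, while _s_at and _x_at mark probes that may also bind other genes. This gave 24 probe sets for 9 of the 10 genes, out of 22625 probe sets tested and 12393 genes named by them. The 3 survival genes held 11 of these probe sets and the 6 measured death genes held 13. Bax had none annotated to it here and was not analysed.

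The study compared 2 genotypes on 7 arrays, with 4 arrays labelled wild type and 3 labelled Atg16L1 hypomorphic, a genotype that keeps part of the function of this autophagy gene. All mice had the C57BL/6J background and had received the transplant, and the spleens were collected 7 days later, at an age of 8 weeks according to the series and 9 weeks according to the sample protocol. The cells were enriched with magnetic beads against CD11c, an integrin chain used to isolate dendritic cells, and total RNA was hybridized to a Mouse430A array. The sources used here give neither the allele nor whether donor or recipient carried it. The labels do not tie the arrays to separate animals. The p-values therefore speak only of the spread between these samples, which may be technical.

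Proteins of the Bcl2 family decide whether the outer mitochondrial membrane is opened, the step that commits a cell to apoptosis. Bax and Bak form the pores, Bcl-2, Bcl-xL and Mcl-1 hold them in check, and the BH3-only proteins Bim, Puma, Noxa, Bid and Bad either block the guardians or activate the pore formers. Bim limits the lifespan of lymphocytes and dendritic cells, and Bcl-2 also binds Beclin 1, a protein that starts autophagy.

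Atg16l1 itself, which helps to attach LC3 to forming autophagosomes, had a log2 value of 7.30 ± 0.0924 (SD) over the 4 wild-type arrays and of 6.86 ± 0.0912 (SD) over the 3 hypomorph arrays. The groups did not overlap, though no adjusted p passed (0.462 in limma). The position of its probe set in the gene was not analysed here. The arrays also carried markers of cells other than dendritic cells. The dendritic cell markers averaged 7.60 to 7.88 in wild type and 7.70 to 7.93 in the hypomorph on the log2 scale. For T cells, neutrophils and red pulp macrophages, the 8, 10 and 10 measured markers had 0 probe sets below the lower quartile of all probe set means (3.34 on the log2 scale), so the enriched cells were a mixture by these markers. In such a bulk sample, fewer cells of a type and less RNA per cell cannot be told apart. Erythroid markers averaged 7.51 to 8.15 on the wild-type arrays and 7.07, 8.31 and 5.78 on hypomorph arrays 1, 2 and 3, so these 3 arrays differed among themselves. Other lists differed between genotypes too. Basophil and mast cell markers averaged 6.35 to 7.36 in wild type against 5.73 to 5.86 in the hypomorph, and all 6 measured had negative changes, 5 of them at an unadjusted p under 0.05. With 1 probe set per gene, 445 of all 12393 genes were lower at this threshold. Plasma cell markers averaged 6.61 to 6.97 against 7.06 to 7.38, with positive changes for all 5 measured. Neither list's means overlapped. Pancreatic acinar markers averaged 5.39 to 8.70 against 4.56 to 6.45, a difference of -1.91 in the mean, with overlap. All 10 red pulp macrophage markers had positive changes, and their mean was 10.59 to 11.65 in wild type against 11.31 to 11.60 in the hypomorph. The part of these cells in the values of the Bcl2 family was not tested.

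Of the Bcl2 family, Bcl2l11 stood highest in the hypomorph relative to wild type, with all 5 of its probe sets above the wild-type mean by 0.38 to 0.57 on the log2 scale. The other 8 genes had changes between -0.21 and 0.19. With limma, 0 of the 24 member probe sets had an adjusted p under 0.05, as did 0 of the 22625 (0%). At an unadjusted p under 0.05, 1 of the 24 member probe sets was higher in the hypomorph and 0 were lower, where 4.35% of all probe sets (984) were higher and 3.34% (755) lower, 7.69% in all. The groups did not overlap for 2 of the 24 (8.33%), both higher in the hypomorph, against 3.07% of all probe sets higher and 2.5% lower. The share at an unadjusted p under 0.05 was near the background. The share without overlap was above it but rested on 2 probe sets. The counts are therefore no result about the family.

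**Figure D1:**
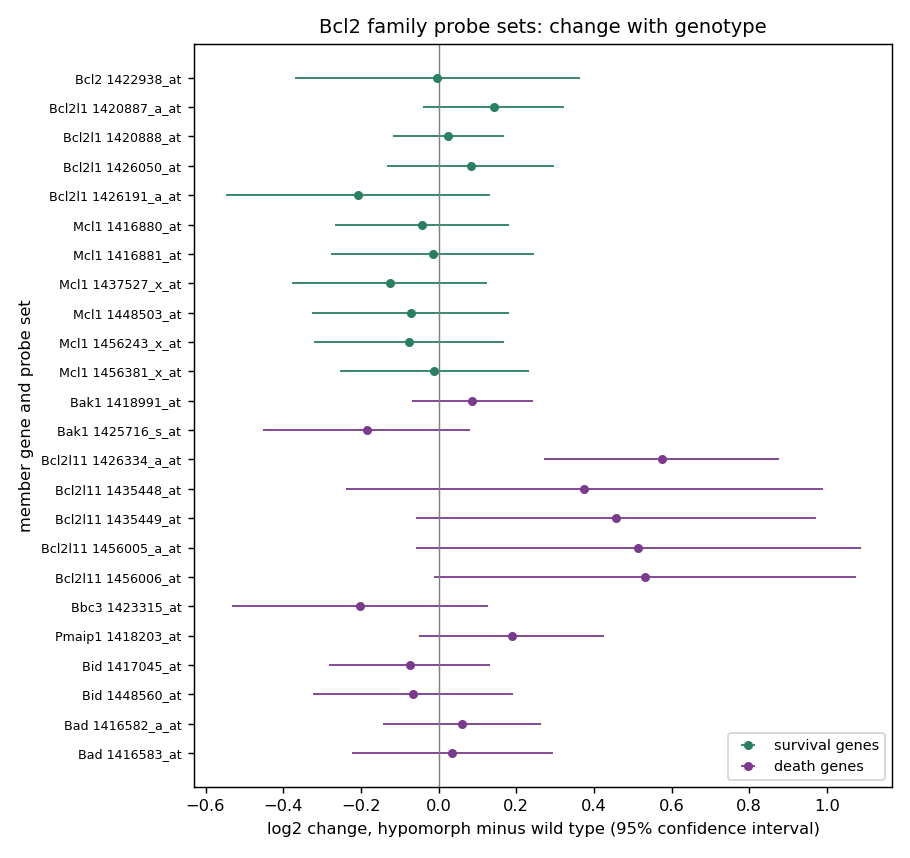
Log2 change between hypomorph and wild type for the 24 probe sets of the Bcl2 family, 1 row per probe set. Points are differences of group means (n = 3 and 4) and bars are 95% confidence intervals from limma; the 5 Bcl2l11 probe sets lie to the right of 0 and 1 of their intervals excludes 0.

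Among the survival genes, Bcl2 had nearly equal means in both genotypes. Its probe set 1422938_at read 5.75, 5.15, 5.45 and 5.19 on wild-type arrays 1 to 4 and 5.30, 5.57 and 5.27 on hypomorph arrays 1 to 3. The wild-type arrays spanned the whole range of the hypomorph arrays, so the groups overlapped fully. The log2 change was -0.0035 (95% confidence interval -0.37 to 0.36, limma adjusted p = 0.997).

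Bcl2l1 encodes Bcl-xL, the main guardian of red cell precursors and platelets. Its probe set of highest mean, 1420888_at, read 7.00, 6.89, 7.03 and 6.95 in wild type against 6.99, 6.99 and 7.00 in the hypomorph. The hypomorph arrays lay inside the wild-type range, with a change of 0.03 and an interval from -0.12 to 0.17 (limma adjusted p = 0.928). The other 3 probe sets of Bcl2l1 differed in sign. Probe set 1420887_a_at read 3.67, 3.59, 3.47 and 3.67 in wild type against 3.68, 3.72 and 3.83 in the hypomorph, so its groups did not overlap, although wild-type arrays 1 and 4 nearly met hypomorph array 1 (change 0.14, limma adjusted p = 0.664). Probe set 1426191_a_at had a change of -0.21 and 1426050_at one of 0.08. These last 2 had means below the lower quartile of all probe sets.

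Mcl1 encodes a short-lived guardian on which many blood cells depend, neutrophils among them. All 6 of its probe sets had a lower mean in the hypomorph, by 0.01 to 0.13, and none passed an unadjusted p of 0.05. The brightest, 1448503_at, read 11.51, 11.67, 11.81 and 11.57 in wild type against 11.43, 11.50 and 11.77 in the hypomorph. Hypomorph arrays 1 and 2 were below all wild-type arrays, and hypomorph array 3 was above 3 of the 4. The change was -0.07 with an interval from -0.32 to 0.18 (limma adjusted p = 0.877).

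For 1437527_x_at, which had the most negative change of the 6, the values were 10.56, 10.55, 10.70 and 10.59 on the wild-type arrays. Hypomorph arrays 1 and 2 were again lowest, at 10.37 and 10.33, and array 3 was highest of all, at 10.73. The change was -0.13 with an interval from -0.38 to 0.13 (limma adjusted p = 0.764).

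The Mcl1 probe sets largely ordered the arrays alike. On 5 of the 6, hypomorph array 3 and wild-type array 3 were the highest and hypomorph arrays 1 and 2 the lowest. The exception was 1416881_at, where wild-type arrays 1 and 4 took the places of hypomorph array 2 and wild-type array 3. Averaged over the 6, Mcl1 lay 0.18 and 0.16 below the wild-type mean on hypomorph arrays 1 and 2 and 0.16 above it on hypomorph array 3. The 10 measured neutrophil markers, all with a lower mean in the hypomorph, were arranged similarly. Their mean was 11.02 to 11.32 in wild type, 10.31 and 10.64 on hypomorph arrays 1 and 2, and 11.23 on hypomorph array 3. Over the 7 arrays, Pearson r between 1448503_at and this mean was 0.80 (exact permutation p = 0.0290, adjusted p = 0.608) and Spearman's rho was 0.89 (exact permutation p = 0.0123, adjusted p = 0.310). Without hypomorph arrays 1 and 2, which lay farthest out for these markers, r was 0.72. Such a likeness was shared by many genes. Of 12382 other genes outside the neutrophil list, 326 (2.63%) had an r over the 7 arrays at least as high.

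By rank, Mcl1 followed the 8 measured B cell markers more closely still. Their mean was 4.46 to 4.58 in wild type and 3.86, 4.34 and 4.54 on hypomorph arrays 1, 2 and 3. Of the 8 markers, 2 had means below the lower quartile of all probe sets. The marker Ms4a1 read 4.29 on hypomorph array 1 against 6.72 to 7.03 on the wild-type arrays. Spearman's rho was 0.96 (exact permutation p = 0.00278, adjusted p = 0.117), and r was 0.73 (exact permutation p = 0.0220, adjusted p = 0.555) and 0.89 without hypomorph arrays 1 and 2. With the 5 measured megakaryocyte and platelet markers rho was 0.82 (exact permutation p = 0.0341, adjusted p = 0.614), and r was 0.69 (exact permutation p = 0.0784, adjusted p = 0.671) and 0.56 without hypomorph arrays 1 and 2. None of these passed after adjustment over the 126 relations computed, 9 genes with 14 marker lists. The part of neutrophils, B cells or platelets in the Mcl1 values was not tested.

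**Figure D2:**
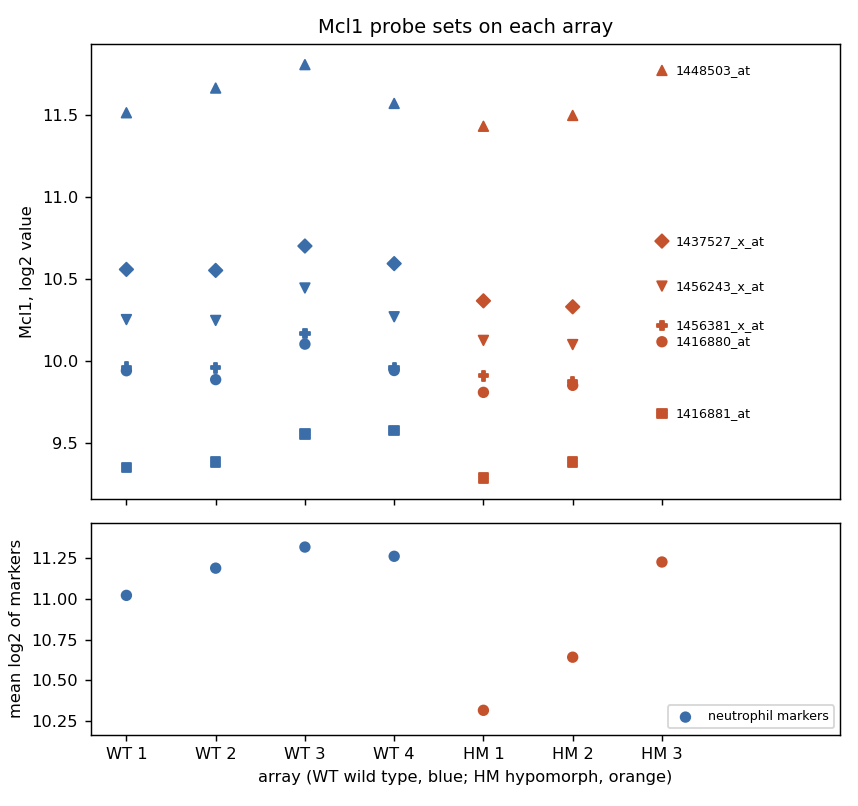
Log2 value of the 6 Mcl1 probe sets on each array (top) and the mean log2 value of the 10 neutrophil markers (bottom), with wild-type arrays in blue and hypomorph arrays in orange. Each symbol is 1 probe set, and hypomorph arrays 1 and 2 are lower than hypomorph array 3 in both panels.

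Among the death genes, the BH3-only gene Bcl2l11, which encodes Bim, had the widest spread and the largest changes. Its probe set 1426334_a_at read 4.53, 4.37, 4.35 and 4.09 in wild type against 5.15, 4.78 and 4.81 in the hypomorph. All hypomorph values thus lay above all wild-type values. The change was 0.57, a level 1.49-fold higher, with an interval from 0.27 to 0.88. This probe set was dim, and with 32 added to the linear values its change was 0.25. A two-sided exact permutation test gave p = 0.0286, which is the lowest p available with 4 against 3 arrays, and the limma adjusted p was 0.644.

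The brightest Bcl2l11 probe set, 1456005_a_at, read 8.92, 8.43, 9.18 and 8.27 in wild type against 9.59, 9.03 and 9.02 in the hypomorph. Here wild-type arrays 1, 2 and 4 were below all hypomorph arrays, while wild-type array 3 was above hypomorph arrays 2 and 3. The change was 0.51 with an interval from -0.06 to 1.09 (limma adjusted p = 0.646). For 1456006_at the values were 5.99, 5.32, 5.84 and 5.36 in wild type against 6.63, 5.91 and 5.94 in the hypomorph, a change of 0.53. For 1435449_at they were 7.72, 7.23, 7.83 and 7.09 against 8.27, 7.64 and 7.86, a change of 0.46. For 1435448_at they were 8.79, 7.83, 8.53 and 7.79 against 8.86, 8.41 and 8.56, a change of 0.38. In each of these 4 probe sets wild-type arrays 2 and 4 lay below the hypomorph, and array 1, array 3 or both overlapped with it.

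Hypomorph array 1 was the highest of the 7 for all 5 Bcl2l11 probe sets. Without it, the changes were 0.46 for 1426334_a_at, 0.25 for 1435448_at, 0.28 for 1435449_at, 0.32 for 1456005_a_at and 0.30 for 1456006_at, and 1426334_a_at alone had an unadjusted p under 0.05 (0.00943). Without wild-type array 4 the change of 1435448_at was 0.23, and without wild-type array 2 it was 0.24. The number of member probe sets at an unadjusted p under 0.05 was 4 without hypomorph array 2, made up of 3 of Bcl2l11 and the 1 of Pmaip1. It was 3 without wild-type array 1 or 3, all of Bcl2l11. It was also 3 without hypomorph array 3, where Bcl2l1 1426191_a_at and Mcl1 1437527_x_at joined 1426334_a_at with changes of -0.36 and -0.25. No adjusted p of a member passed 0.05 in these fits, and the lowest was 0.166 without hypomorph array 2.

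The wild-type arrays on which the 4 overlapping probe sets of Bcl2l11 were high also differed in cell type markers. Wild-type arrays 1 and 3 had means of 9.20 and 8.78 for the 8 measured T cell markers, against 8.30 and 8.48 on arrays 2 and 4. For the 10 red pulp macrophage markers the order was turned, at 10.59 and 10.89 on arrays 1 and 3 against 11.59 and 11.65 on arrays 2 and 4. On hypomorph arrays 1 to 3 the T cell means were 8.74, 8.92 and 8.54 and the macrophage means 11.60, 11.31 and 11.46. Over the 7 arrays, r between 1456005_a_at and the T cell mean was 0.48 (exact permutation p = 0.271, adjusted p = 0.725) and rho 0.46 (exact permutation p = 0.302, adjusted p = 0.784), and r was 0.58 without wild-type arrays 1 and 2. With the macrophage mean r was -0.24 (exact permutation p = 0.621, adjusted p = 0.870) and rho -0.25 (exact permutation p = 0.595, adjusted p = 0.861). That r was -0.33 without wild-type arrays 1 and 3 and -0.62 with the group means removed.

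The one marker list with an unadjusted p under 0.05 for Bcl2l11 was that of basophils and mast cells. There r was -0.78 (exact permutation p = 0.0427, adjusted p = 0.650) and rho -0.64 (exact permutation p = 0.139, adjusted p = 0.784). Without wild-type array 4 and hypomorph array 3, r was -0.70, and with the group means removed it was -0.64. The r was -0.67 with B cell markers, -0.65 with neutrophil markers and -0.60 with monocyte markers, with exact permutation p of 0.112, 0.117 and 0.148 and an adjusted p of 0.672 for each. It was -0.60 with pancreatic acinar markers (exact permutation p = 0.148) and 0.59 with plasma cell markers (exact permutation p = 0.158), also with an adjusted p of 0.672. Leaving out hypomorph arrays 1 and 2 gave 0.21 for B cells and 0.0066 for neutrophils. Leaving out wild-type array 4 and hypomorph array 2 gave -0.28 for monocytes and -0.36 for pancreatic acinar markers. For plasma cells r was 0.62 without wild-type array 2 and hypomorph array 3. With the group means removed, r was -0.77 for monocytes, -0.48 for B cells, -0.41 for neutrophils, -0.34 for pancreatic acinar markers and 0.19 for plasma cells. The part of the cell mixture in the Bcl2l11 values was not tested.

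**Figure D3:**
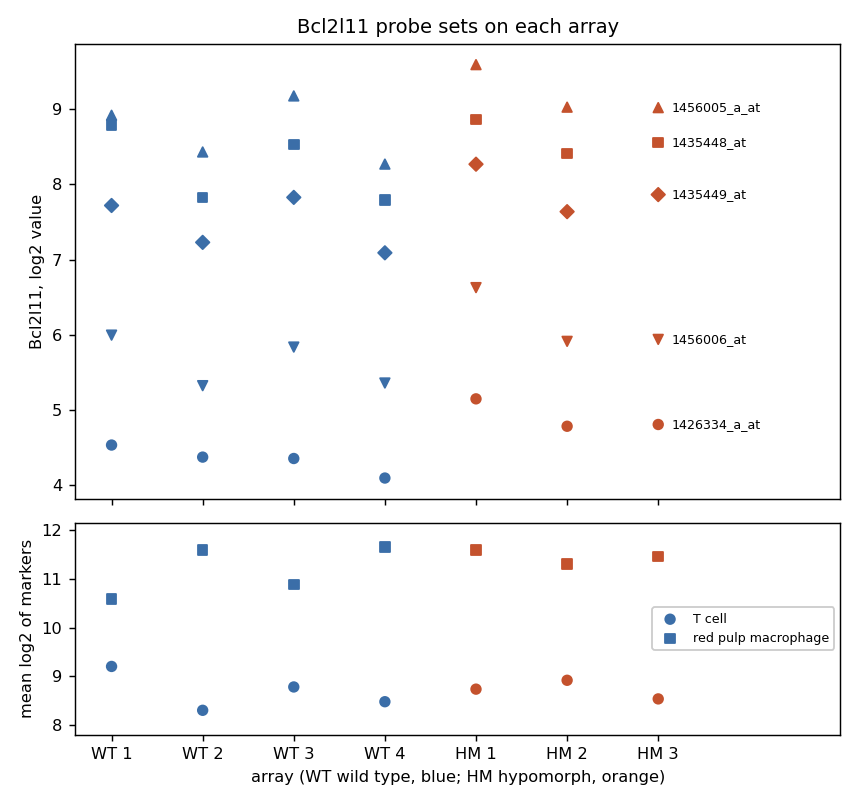
Log2 value of the 5 Bcl2l11 probe sets on each array (top) and the mean log2 values of T cell and red pulp macrophage markers (bottom), with wild-type arrays in blue and hypomorph arrays in orange. Each symbol is 1 probe set; hypomorph array 1 is the highest for all 5, and for 1426334_a_at all 3 hypomorph arrays lie above the 4 wild-type arrays.

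The remaining BH3-only genes showed smaller differences. Pmaip1, whose product Noxa mainly binds Mcl-1, read 9.31, 9.61, 9.59 and 9.45 in wild type against 9.81, 9.52 and 9.71 in the hypomorph. Hypomorph arrays 1 and 3 were above all wild-type arrays and array 2 was among them (change 0.19, interval -0.05 to 0.43, limma adjusted p = 0.662). Bbc3, which encodes the p53 target Puma, read 6.19, 5.91, 6.35 and 5.81 in wild type against 5.72, 5.98 and 5.90 in the hypomorph. Its groups overlapped, and its change of -0.20 (interval -0.53 to 0.13, limma adjusted p = 0.711) had the opposite sign to that of Bcl2l11. Single arrays left out moved these changes, that of Pmaip1 from 0.12 without hypomorph array 1 to 0.27 without hypomorph array 2, and that of Bbc3 from -0.29 without wild-type array 4 to -0.11 without wild-type array 3.

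Bid, which links death receptors to mitochondria, had changes of -0.07 in both probe sets, and its brighter one, 1417045_at, spanned 7.84 to 7.95 in wild type and 7.65 to 7.99 in the hypomorph. Bad, which is switched off by growth factor signalling, had changes of 0.06 and 0.03, and 1416583_at spanned 6.29 to 6.59 in wild type and 6.28 to 6.66 in the hypomorph. Both genes therefore overlapped fully between genotypes.

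Of the pore formers only Bak1 could be described. Its brighter probe set, 1418991_at, read 6.73, 6.59, 6.63 and 6.73 in wild type against 6.81, 6.73 and 6.73 in the hypomorph (change 0.09, interval -0.07 to 0.24, limma adjusted p = 0.738). The other, 1425716_s_at, was dimmer, at 3.82, 3.60, 3.51 and 3.43 on the wild-type arrays and 3.23, 3.46 and 3.51 on the hypomorph arrays. Its change was -0.19, so the probe sets of Bak1 differed in sign, and in both the groups overlapped or met. The latter change was -0.10 without hypomorph array 1.

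With 1 probe set per gene, the one of highest mean, the median log2 change was -0.0035 over the 3 survival genes and 0.06 over the 6 death genes, beside -0.0024 over all 12393 genes. The median of the survival genes was 0.04 without wild-type array 1, 0.03 without hypomorph array 1 and -0.07 without wild-type array 4, and that of the death genes was 0.03 without wild-type array 2, 0.11 without hypomorph array 2 and 0.10 without wild-type array 1. The mean of the death genes relative to the wild-type mean was 0.07, -0.09, 0.13 and -0.11 on the wild-type arrays and 0.18, 0.02 and 0.07 on the hypomorph arrays. That of the survival genes was 0.09, -0.10, 0.10 and -0.09 in wild type against -0.09, 0.02 and 0.02 in the hypomorph. In wild type the means of both roles were high on arrays 1 and 3 and low on arrays 2 and 4.

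Survival minus death genes stayed between -0.03 and 0.02 on the wild-type arrays and read -0.27, 0.01 and -0.06 in the hypomorph. Only hypomorph array 1 stood clearly apart, and without it the difference between genotypes was -0.03 in place of -0.11. Without hypomorph array 2 it was -0.16. Without Bcl2l11, the death genes differed by 0.0064 between genotypes.

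**Figure D4:**
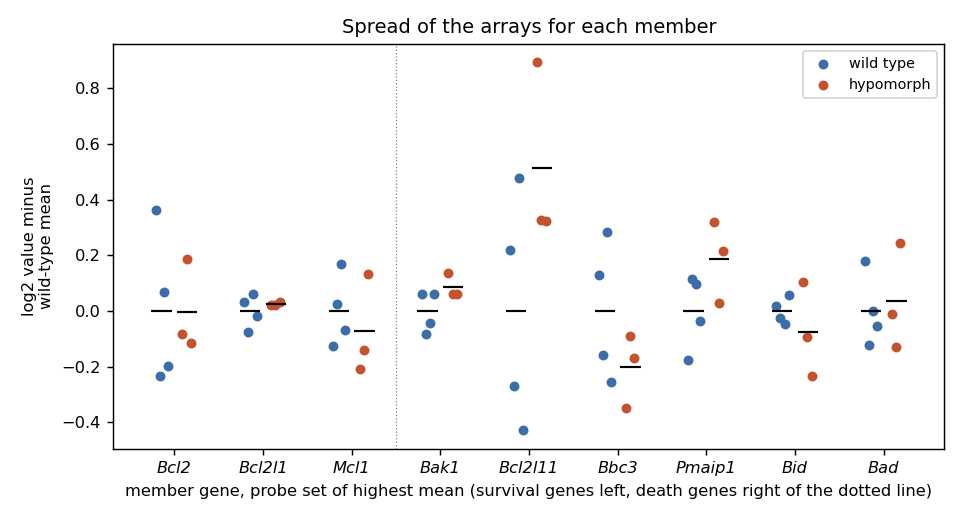
Log2 value minus the wild-type mean for the probe set of highest mean of each of the 9 measured genes, with 1 point per array and a black line at each group mean. Bcl2l11 has the widest spread, from 0.43 below to 0.89 above its wild-type mean, and Bcl2l1 the narrowest.

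Bcl2, with nearly equal means in both genotypes, varied from array to array with the T cell markers. The 7 arrays had the same order for Bcl2, for Cd3d and Cd3g, which encode chains of the T cell receptor complex, and for the mean of the 8 measured T cell markers. From highest to lowest this order was wild-type array 1, hypomorph array 2, wild-type array 3, hypomorph arrays 1 and 3, and wild-type arrays 4 and 2. Pearson r between Bcl2 and the T cell mean was 0.97 (exact permutation p = 0.000198, adjusted p = 0.0250) and Spearman's rho was 1 (exact permutation p = 0.000397, adjusted p = 0.05). The r was 0.94 without wild-type arrays 1 and 2, which lay farthest out, and 0.97 with the group means removed. Wild type and hypomorph alone held too few arrays for a value each.

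The same arrays were ordered nearly alike by the 7 measured markers of cytotoxic lymphocytes and NK cells, a list that may also read T cells. Which of these cells the list read here was not tested. Bcl2 had an r of 0.98 with it (exact permutation p = 0.000397, adjusted p = 0.0250) and a rho of 0.96 (exact permutation p = 0.00278, adjusted p = 0.117), and r was 0.98 without wild-type arrays 1 and 2. With the red pulp macrophage markers r was -0.87 (exact permutation p = 0.0121, adjusted p = 0.494) and rho -0.79 (exact permutation p = 0.0480, adjusted p = 0.756). Without wild-type arrays 1 and 3 it was -0.88. With the dendritic cell markers, the cells enriched for, r was -0.78 (exact permutation p = 0.0349, adjusted p = 0.629) and rho -0.54 (exact permutation p = 0.236, adjusted p = 0.784). That relation rested on wild-type array 1 and hypomorph array 2, without which r was 0.13. Of 126 relations between a member and a marker list, only those of Bcl2 with the T cell and the cytotoxic lists had an adjusted p of r under 0.05. An unadjusted p under 0.05 was reached by 9, and some are expected by chance at this threshold. Bbc3 was among these with the red pulp macrophage markers, with an r much like that of Bcl2 (-0.88, exact permutation p = 0.0157, adjusted p = 0.494). That r was -0.74 without wild-type arrays 1 and 3. With stroma and endothelium markers the r of Bbc3 was -0.76 (exact permutation p = 0.0498, adjusted p = 0.650) and rho -0.61 (exact permutation p = 0.167, adjusted p = 0.784). This last relation rested on wild-type arrays 1 and 3, without which r was -0.089.

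Few genes followed the T cell mean as closely as Bcl2 did. Of 12384 other genes outside the T cell list, 8 (0.0646%) had an r at least as high. The 10 genes most like Bcl2, by r over the 7 arrays among all named genes, were Hdhd5 (0.98), Cd5 (0.98), Cd3g (0.98), Aak1 (0.97), Gimap4 (0.97), Sigirr (0.97), Ccl5 (0.97), Olfr68 (0.97), Cd3d (0.96) and Ptprcap (0.96). Cd5, Cd3g and Cd3d belong to the T cell list. Olfr68, an olfactory receptor gene, had a mean below the lower quartile of all probe sets. This likeness was singled out after the values were seen, with points that share array, normalization and cell mixture, and the part of T cells in the Bcl2 signal was not tested.

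**Figure D5:**
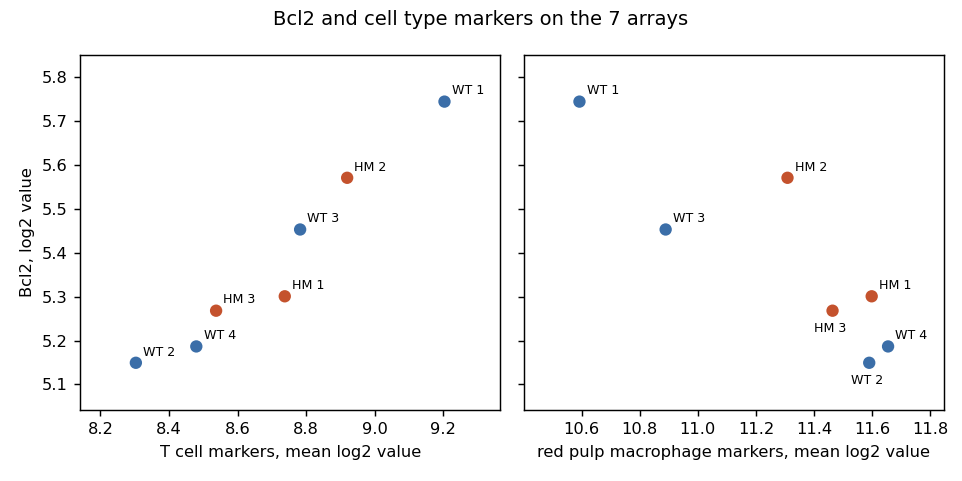
Log2 value of Bcl2 on the 7 arrays against the mean log2 value of the 8 T cell markers (left) and of the 10 red pulp macrophage markers (right), with wild-type arrays in blue and hypomorph arrays in orange. Bcl2 follows the T cell mean (r = 0.97) and runs against the macrophage mean (r = -0.87).

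Other genes of the apoptosis pathway are given by list, and no member of any list passed an adjusted p of 0.05. With 1 probe set per gene, 443 of all 12393 genes (3.57%) were higher and 445 lower at an unadjusted p under 0.05. These numbers are the background for the list counts that follow. Of 14 further Bcl2 family genes, 9 were measured, with 6 positive and 3 negative changes, a median of 0.02, and 0 at an unadjusted p under 0.05. Bnip3, a mitochondrial protein that also serves as a receptor for mitophagy, read 7.29 ± 0.171 (SD) in wild type against 7.70 ± 0.389 in the hypomorph, a change of 0.41. Bcl2l13, likewise named as a mitophagy receptor, read 7.42 ± 0.0571 against 7.11 ± 0.351, a change of -0.31. Bcl2l2, which encodes the guardian Bcl-w, had a change of 0.14, and the BH3-only gene Bmf one of 0.15. Leaving out 1 array gave 0.22 (without hypomorph array 1) to 0.60 (without hypomorph array 2) for Bnip3 and -0.48 (without hypomorph array 2) to -0.13 (without hypomorph array 3) for Bcl2l13. Bcl2l2 was at 0.051 without hypomorph array 3 and Bmf at 0.054 without hypomorph array 2.

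Downstream of the pore, 18 of 20 genes of the apoptosome, caspases and their inhibitors were measured, 7 positive and 11 negative, with a median of -0.03. At an unadjusted p under 0.05, 0 were higher and 1 was lower. That one was Htra2, a protease released from mitochondria, with 7.67 ± 0.176 in wild type against 7.33 ± 0.146 in the hypomorph, a change of -0.34. Its unadjusted p was 0.0717 without hypomorph array 1 and 0.0596 without hypomorph array 3. Vdac1 and Vdac3, channels of the outer membrane, had changes of -0.16 and -0.15. Birc5 encodes survivin, which also acts in mitosis, and had a change of -0.28, which was -0.073 without hypomorph array 3 and -0.47 without hypomorph array 2. All 15 measured cell cycle markers had negative changes too, and their mean was 9.40 to 9.63 in wild type and 9.10, 9.52 and 8.82 on hypomorph arrays 1 to 3. Birc5 itself read 9.51, 9.86 and 9.07 on these arrays, and the part of dividing cells was not tested.

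Of 16 genes for p53 and its targets, 14 were measured, 7 in each direction, with a median of 0.03. The antiproliferative gene Btg2 (0.46) and the cell cycle inhibitor Cdkn1a (0.45) were higher at an unadjusted p under 0.05, and 0 were lower. Beside the 3.57% of all 12393 genes that were higher, this count rests on 2 genes. Neither call held in every fit with 1 array left out. For Btg2 the p stayed under 0.05 only without wild-type array 1 or 3, and was highest without hypomorph array 3 (0.149, change 0.34). For Cdkn1a it stayed under 0.05 only without hypomorph array 2 or wild-type array 3, and was highest without hypomorph array 3 (0.153, change 0.34). Gadd45a, a DNA damage gene, had a change of -0.46, which ran from -0.66 without hypomorph array 3 to -0.21 without hypomorph array 1. Phlda3, a p53 target that restrains Akt, had one of 0.32, and 0.15 without hypomorph array 3. Of 14 genes of death receptors and necroptosis, 11 were measured, 8 positive and 3 negative, with a median of 0.08 and 0 at an unadjusted p under 0.05. The TNF receptors Tnfrsf1a and Tnfrsf1b had changes of 0.24 and 0.20, the necroptosis kinase Ripk3 one of 0.27 and Daxx one of 0.09. Without hypomorph array 1, Ripk3 was at 0.099 and Daxx at 0.041. Tnfrsf1b was at 0.090 without hypomorph array 3 and at 0.37 without hypomorph array 2.

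All 17 regulators of the family were measured, 7 positive and 10 negative, with a median of -0.02. Stat3, which can activate Mcl1 and Bcl2l1, was higher at an unadjusted p under 0.05 (0.34), and Spib, a transcription factor of plasmacytoid dendritic cells and B cells, was lower (-0.52, without overlap). The p of Stat3 was above 0.05 without hypomorph array 1 (0.0825), hypomorph array 3 (0.0645), wild-type array 2 (0.0531) or wild-type array 4 (0.0530), while that of Spib stayed under 0.05 in all 7 such fits. Spib read 4.07, 4.40 and 4.75 on hypomorph arrays 1 to 3, where the mean of 8 B cell markers was 3.86, 4.34 and 4.54, beside 4.46 to 4.58 in wild type. The part of B cells in the Spib values was not tested. Dynll1, a dynein light chain that binds Bim, had a change of -0.29, with -0.14 without hypomorph array 1 and -0.50 without hypomorph array 2. Gata1, an erythroid factor that also stands in the erythroid list, read 7.05 ± 0.289 in wild type against 6.17 ± 1.16 in the hypomorph (change -0.88), with 4.99 on array 3, where the erythroid mean was lowest. Without that array the change was -0.28, and without hypomorph array 2 it was -1.45. Of factors that act on Bcl2l11, Foxo3, Foxo1 and Ddit3 were among the 15 regulators without an unadjusted p under 0.05. The activity of these factors was not measured, and their part in the Bcl2l11 values was not tested.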

How the data were processed

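Per the labels, CD11c-positive cells were enriched from spleen by magnetic sorting, and 100 ng of total RNA was labelled for a Mouse430A array. The authors deposited log2 values, 1 for each probe set on each array. The submitters' processing notes name Affymetrix Power Tools (version, summary method and normalization: not given in the sources used here). Array medians lay close together, at 5.46 to 5.53, which does not by itself show that values had been normalized between arrays. Precision is limited by the number of arrays. Of 22690 probe sets, 64 controls and 1 without a value were left out. Of the rest, 20379 named 1 gene in the platform annotation (20350 found by Entrez identifier in RefSeq, GRCm38.p6), 691 several and 1555 none. No coordinates or sequences are given.

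The 2 genotypes were compared in limma 3.58.1 (R 4.3.3) without a block, and p-values were adjusted by Benjamini-Hochberg over all 22625 probe sets. An exact permutation test, two-sided, over the 35 possible splits of the arrays was added for single probe sets. A list entered with 1 probe set per gene, that of highest mean over the arrays, and marker levels are means of such log2 values. Correlations have exact permutation p over all orders of the arrays, adjusted over 126 relations. The limma step was tested on simulated data. The family, the lists, the tests and the naming rule (every member, Atg16l1, and up to 4 genes with the smallest p in each pathway list) were chosen with earlier results of these data known. The 10 genes most like Bcl2 and the factors named without values were chosen after their values were seen. Alternatives were median centring, quantile normalization, trended robust variance, array weights, a replicate block, 32 added to linear values, no dim probe sets, the mean of a gene's probe sets, and each array left out.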

Additional observations from a re-analysis of the deposited data

Results flagged for a closer look

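In groups of 4 arrays, a value was looked at again when the gap between the highest or lowest array and its nearest neighbour took up a share of the group's range above Dixon's critical value. Of 65 sets of wild-type values examined, 6 met this, where chance gives about 1 in 20. The groups of 3 hypomorph arrays were not examined in this way. For Mcl1, wild-type array 3 read 10.44 with 1456243_x_at, where the other wild-type arrays read 10.25 to 10.27, and 10.17 with 1456381_x_at, where the others read 9.96. Among pathway genes, Vdac3 read 9.90 on wild-type array 2 against 9.74 on the others, Daxx read 7.47 on wild-type array 2 against 7.58 to 7.61, and Dynll1 read 10.94 on wild-type array 1 against 10.72 to 10.75. The mean of the 13 dendritic cell markers was 7.60 on wild-type array 1, below 7.83 to 7.88 on the other wild-type arrays; this array also had the highest Bcl2 value and the highest T cell marker mean.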

How the results depend on the processing

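No member probe set had an adjusted p under 0.05 under any alternative run. The 5 Bcl2l11 probe sets had positive changes in each of the 14 other fits. Of all probe sets, 5 passed with centred medians, 5 with a trended robust variance and 3 with array weights, against 0; single arrays left out gave 0 to 2, 598 to 1411 higher and 431 to 1578 lower at an unadjusted p under 0.05. Member probe sets at an unadjusted p under 0.05 numbered 2 with array weights, 3 with the replicate block and 1 to 4 without single arrays. Survival minus death genes was -0.13 with array weights, -0.084 with the mean over a gene's probe sets and -0.16 to -0.026 without single arrays. Changes near 0 turned sign for Bcl2 (0.018 with array weights, 5.6e-05 with quantile normalization) and, with the replicate block, for Bid 1448560_at (0.017) and Mcl1 1416881_at (0.022). Without single arrays, Bcl2 ran from -0.10 to 0.12, Bcl2l1 1420888_at from -0.00013 to 0.046, Mcl1 1416880_at from -0.14 to 0.017, 1416881_at from -0.13 to 0.068 and 1456381_x_at from -0.12 to 0.052, Bid 1417045_at from -0.16 to 0.0056 and 1448560_at from -0.13 to 0.017, and Bad 1416583_at from -0.070 to 0.12. The cause of these shifts was not tested. No label pairs arrays across genotypes, so arrays with the same replicate number were not treated as pairs. Their deviations from the group means correlated by 0.10, 0.098 and 0.34. By these deviations, hypomorph arrays 1, 2 and 3 were most like wild-type arrays 2, 1 and 3. Such values cannot decide whether the arrays were paired. The replicate block also sets aside wild-type array 4, which has no partner. With this block, Bcl2l11 changes were 0.23 to 0.49 with a limma adjusted p of 0.572 at the lowest. With 4 and 3 arrays, signal and array number limit what can be called.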
